A study of Arabidopsis thaliana with 36 samples.

Results

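The genes described here had lower transcript levels in both organs of Arabidopsis thaliana plants of the line opt3-2 than in the wild type Columbia-0. RNA sequencing gave counts of reads for 28775 genes in roots and leaves. Levels are in CPM, the counts per 1000000 counted reads of a replicate. A gene was taken when its Columbia-0 mean reached 5 CPM in each organ, its opt3-2 mean was at most 0.7 times the Columbia-0 mean in each organ, and the highest opt3-2 replicate lay below the lowest Columbia-0 replicate in each organ. The first condition left 12942 genes, and 68 of them met all conditions, which is 0.525%. The opt3-2 and Columbia-0 values of both organs chose these 68 genes, so their differences between the genotypes are given as a description without a test.

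The 4 groups were opt3-2 roots, Columbia-0 roots, opt3-2 leaves and Columbia-0 leaves, with 3 biological replicates each. Both genotypes grew on plates (11 days) and then hydroponically (22 days), with a light period of 16 h and a dark period of 8 h. Pools of 3 to 4 plants made each RNA sample. The labels name the medium as replete, while a protocol text carried by both genotypes speaks of 20 µM CdCl2 for 72 h, and the sources used here do not settle which of them holds. Whether replicates came from separate cultures is not stated, so a p-value here reflects only how far these samples spread.

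OPT3 is a transporter of the phloem that takes part in carrying iron, and later work also tied it to copper. opt3-2 carries an insertion at this gene and is viable. When copper is scarce, plants raise a set of genes through the factor SPL7, which binds the core sequence GTAC. The set holds copper reductases, transporters, the iron superoxide dismutase FSD1 and the microRNAs miR398 and miR408, which act against transcripts of copper proteins. Secondary cell walls, in which some of the genes described below act, are laid down mainly in xylem and fibres by a cellulose synthase complex that differs from that of growing walls.

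Counted reads per replicate were 23981444 to 37685493, and the deepest replicates were those of opt3-2 leaves. OPT3 transcript had 16.2, 18.1 and 15.9 CPM in opt3-2 leaves, against 106, 81.7 and 69.8 CPM in Columbia-0 leaves (log2 fold change -2.40 ± 0.16 SE, adjusted p = 2.66e-06 in edgeR's quasi-likelihood test). In roots it had 7.69, 6.23 and 5.38 CPM in opt3-2, against 9.31, 8.02 and 9.87 CPM in Columbia-0, a difference that did not pass the edgeR test (-0.41 ± 0.17, adjusted p = 0.125). The leaf markers LHCB1.1, LHCB2.1, RBCS1A and RCA summed to 104 to 189 CPM over all root replicates and to 30400 CPM or more in every leaf replicate, so organs matched their labels. In bulk samples, fewer cells of a type and less RNA per cell cannot be told apart.

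Over the 68 genes, the ratio of the opt3-2 mean to the Columbia-0 mean was 0.195 to 0.6995 in roots, with a median of 0.653, and 0.125 to 0.697 in leaves, with a median of 0.598. The same medians over the 12942 genes were 0.941 in roots and 1.04 in leaves. Most ratios lay close to the limit: 49 of the 68 were above 0.6 in roots and 33 were above 0.6 in leaves. A ratio of at most 0.5 was found for 8 genes in roots and 15 in leaves, and 5 had it in both. The transcripts of all 68 together made up 3401 CPM in opt3-2 roots, against 5914 CPM in Columbia-0 roots, and 1791 CPM in opt3-2 leaves, against 3520 CPM in Columbia-0 leaves. The ratio was lower in leaves for 45 genes and lower in roots for 23. In the edgeR fit, 56 of the 68 passed as lower in roots and 67 in leaves. Among all genes tested 7.28% were called lower in roots and 12.6% in leaves. Since the genes were chosen on these contrasts, nothing is read from that difference. Scaling matters in roots: of all genes called there, 53.2% were higher in opt3-2 with TMM factors and 30% with total counts, the scaling of the rule.

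**Figure D1:**
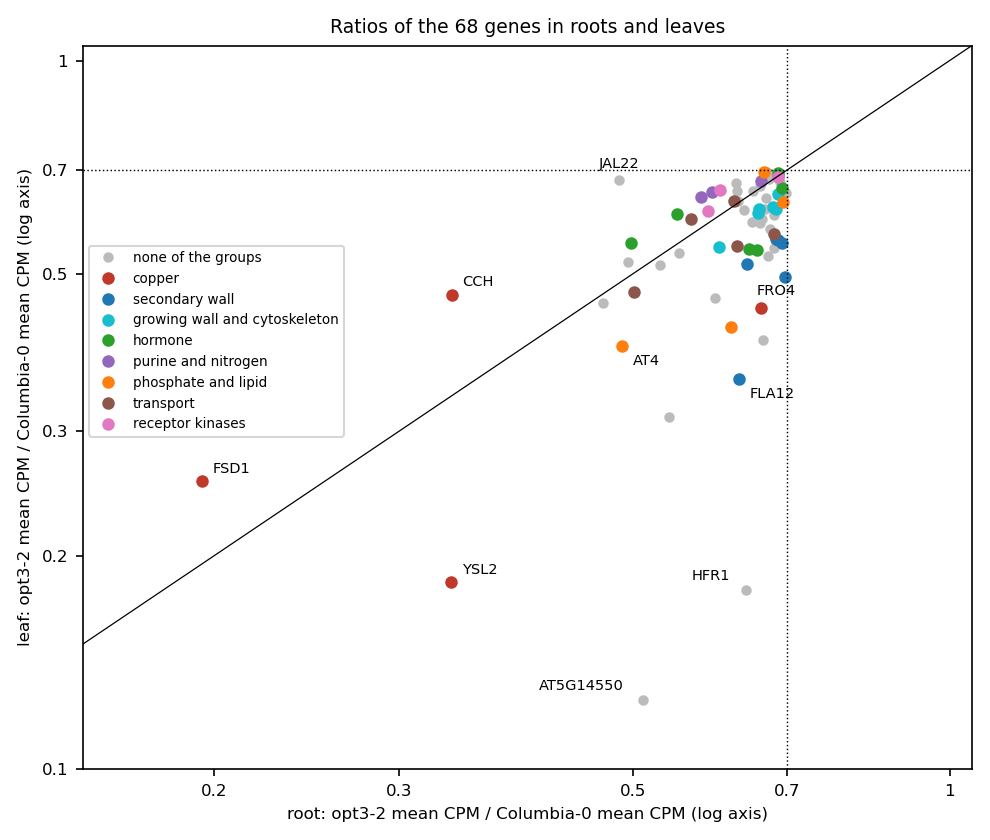
Ratio of the opt3-2 mean CPM to the Columbia-0 mean CPM in leaves (vertical, log axis) against the same ratio in roots (horizontal, log axis), 1 point for each of the 68 genes, coloured by role. Dotted lines mark 0.7 and the solid line marks equal ratios; most points crowd below the dotted lines, and FSD1, YSL2, CCH, AT5G14550 and HFR1 lie far from them.

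Of the 68 genes, 4 belong to a list of 15 copper deficiency genes: FSD1, YSL2, CCH and FRO4. Ordered from the lowest product of both ratios, they ranked 1, 2, 5 and 18 among the 68. FSD1 and CCH were also among the 6 most abundant of the 68 in Columbia-0. RefSeq promoters (TAIR10.1, from 250 bases before to 50 bases after the annotated gene start, 300 bases) of the 4 are shown with the SPL7 core GTAC in capitals, because this element is the one known to respond to copper. The letters read the same on both strands. FSD1 lies on the minus strand and its window is chr4:12886962-12887261. YSL2 lies on the plus strand with the window chr5:8323645-8323944. CCH is on the minus strand with chr3:20864678-20864977, and FRO4 is on the minus strand with chr5:8101281-8101580.
FSD1: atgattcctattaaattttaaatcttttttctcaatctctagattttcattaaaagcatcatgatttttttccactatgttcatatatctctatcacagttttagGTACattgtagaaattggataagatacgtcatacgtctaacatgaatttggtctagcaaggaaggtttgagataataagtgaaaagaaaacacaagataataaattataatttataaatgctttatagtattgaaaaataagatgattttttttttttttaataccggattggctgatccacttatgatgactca
YSL2: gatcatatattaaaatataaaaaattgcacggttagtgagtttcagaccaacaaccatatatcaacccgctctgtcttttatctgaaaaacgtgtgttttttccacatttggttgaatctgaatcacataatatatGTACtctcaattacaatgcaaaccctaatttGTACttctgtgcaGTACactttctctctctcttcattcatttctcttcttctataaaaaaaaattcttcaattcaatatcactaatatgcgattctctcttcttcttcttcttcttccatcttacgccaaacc
CCH: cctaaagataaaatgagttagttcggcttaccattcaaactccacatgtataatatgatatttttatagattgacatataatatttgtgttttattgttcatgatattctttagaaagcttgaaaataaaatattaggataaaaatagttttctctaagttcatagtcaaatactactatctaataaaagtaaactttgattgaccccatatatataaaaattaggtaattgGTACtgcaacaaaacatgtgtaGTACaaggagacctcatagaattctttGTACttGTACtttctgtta
FRO4: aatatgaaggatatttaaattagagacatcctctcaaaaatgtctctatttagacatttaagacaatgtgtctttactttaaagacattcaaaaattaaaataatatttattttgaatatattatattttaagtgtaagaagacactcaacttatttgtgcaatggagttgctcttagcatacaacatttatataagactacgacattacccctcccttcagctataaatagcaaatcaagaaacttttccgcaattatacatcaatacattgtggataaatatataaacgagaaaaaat
FSD1 held 1 GTAC, at -145 from the gene start. YSL2 held 3, at -114, -83 and -70, and CCH held 4, at -18, 5, 32 and 38, the last 3 of them within the transcribed part. FRO4 had none in this window. Over all 28009 promoters of the same length, 39.1% held at least 1 GTAC and 2.03% held 3 or more.

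FSD1 encodes the iron superoxide dismutase of plastids, which takes over from the copper/zinc enzymes when copper is short. FSD1 had 144, 55.2 and 64.2 CPM in opt3-2 roots, against 448, 449 and 453 CPM in Columbia-0 roots, a ratio of 0.195, the lowest of the 68 in that organ. Leaf values were 192, 199 and 203 CPM in opt3-2, against 833, 806 and 691 CPM in Columbia-0 (ratio 0.255). The first opt3-2 root replicate stood above the other two, and no opt3-2 replicate came near the Columbia-0 range in either organ.

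CCH is a copper chaperone related to yeast ATX1. It had 190.4, 155 and 127 CPM in opt3-2 roots, against 494, 451 and 456 CPM in Columbia-0 roots (ratio 0.337). In leaves it had 116, 120 and 135 CPM in opt3-2, against 235, 277 and 282 CPM in Columbia-0 (ratio 0.467). Like FSD1, it was lower by more in roots than in leaves.

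YSL2 belongs to the YELLOW STRIPE-like family, which carries metals bound to nicotianamine. YSL2 showed 28.0, 21.6 and 17.2 CPM in opt3-2 roots, against 74.4, 57.9 and 66.4 CPM in Columbia-0 roots (ratio 0.336). In opt3-2 leaves it was at 3.18, 3.31 and 2.70 CPM, against 22.7, 14.9 and 12.5 CPM in Columbia-0 leaves (ratio 0.184). This gene was thus lower by more in leaves, and its annotated span overlaps a gene on the opposite strand over 99 bases.

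FRO4 is a metal reductase of the plasma membrane that, with its neighbour FRO5, reduces copper for uptake. It was the weakest of the 4 in roots, with 20.4, 18.6 and 35.6 CPM in opt3-2, against 38.6, 37.3 and 37.0 CPM in Columbia-0 (ratio 0.661). The third opt3-2 root replicate lay just under the Columbia-0 range, and with TMM or upper-quartile factors FRO4 no longer met the rule. In the edgeR fit FRO4 did not pass as lower in roots. Leaves gave 10.3, 9.003 and 9.21 CPM in opt3-2, against 20.8, 19.8 and 23.2 CPM in Columbia-0 (ratio 0.448). FRO4 and FRO5 are similar in sequence, and the sources used here do not say how the counting treated reads that fit both.

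The other 11 genes of the copper deficiency list were not members. 9 had enough reads to test, and 2, the rows of MIR398B and MIR408, were at 0 reads in every replicate. In roots 5 of the 9 fell and 0 rose by edgeR (0 also at an unadjusted p under 0.05 and by DESeq2), with a median log2 fold change of -0.85 against 0.00 over all genes tested. In leaves 3 fell and 1 rose, with a median of 0.03. Over all genes tested, 7.28% fell and 8.28% rose in roots, and 12.6% fell and 15.4% rose in leaves. CITF1, a transcription factor of copper uptake, averaged 0.180 ± 0.030 CPM in opt3-2 roots and 10.4 ± 0.4 CPM in Columbia-0 roots (SD, n = 3 each; edgeR adjusted p = 1.07e-07). It also fell in leaves (log2 -2.58, edgeR adjusted p = 0.0182), where it was at 0.121 CPM in Columbia-0, far under the 5 CPM the rule asked for. That leaf value rests on 2 reads over the opt3-2 replicates and 10 over the Columbia-0 ones, and the call was lost without opt3-2 leaf replicate 2 or 3 or Columbia-0 leaf replicate 2 (edgeR adjusted p up to 0.082, log2 -5.23 to -2.12 over 12 alternatives). FRO5 averaged 28.9 ± 5.1 CPM in opt3-2 roots and 774 ± 48 CPM in Columbia-0 roots (edgeR adjusted p = 1.97e-07), and its leaf levels were about 1 CPM in both genotypes. ZIP2, a metal transporter of the ZIP family, followed the same course, with 21.3 ± 3.0 CPM in opt3-2 roots and 162 ± 15 CPM in Columbia-0 roots (edgeR adjusted p = 8.6e-08). YSL3, a relative of YSL2, went opposite ways: it averaged 43.3 ± 6.2 CPM in opt3-2 roots and 82.4 ± 1.8 CPM in Columbia-0 roots (edgeR adjusted p = 0.000694), and 116 ± 5 CPM in opt3-2 leaves and 82.3 ± 12.1 CPM in Columbia-0 leaves (edgeR adjusted p = 0.0129). COPT2, a copper transporter, fell in leaves (1.73 ± 0.04 CPM in opt3-2 and 6.84 ± 2.08 CPM in Columbia-0, edgeR adjusted p = 5.02e-05) and did not pass in roots (adjusted p = 0.321); the difference between organs was not tested. SPL7 itself did not pass in either organ (edgeR adjusted p = 0.0887 in roots and 0.782 in leaves).

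Copper proteins, on a list of 13 without members, moved otherwise: 4 rose and 0 fell in roots by edgeR (1 fell at an unadjusted p under 0.05 and 0 by DESeq2), and 4 rose and 4 fell in leaves. The shares over all genes tested are those given with the copper deficiency list. The copper/zinc superoxide dismutase CSD2 averaged 448 ± 7 CPM in opt3-2 leaves and 133 ± 7 CPM in Columbia-0 leaves (edgeR adjusted p = 4.23e-08). With CSD2, those that rose in leaves were CSD1, the chaperone CCS and the laccase LAC13. The 4 that fell there were the laccases LAC2, LAC3, LAC4 and LAC12 (log2 -1.38, -1.66, -0.82 and -2.01). LAC3 was under 1 CPM in leaves of both genotypes. The median of the list in leaves was -0.16.

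**Figure D2:**
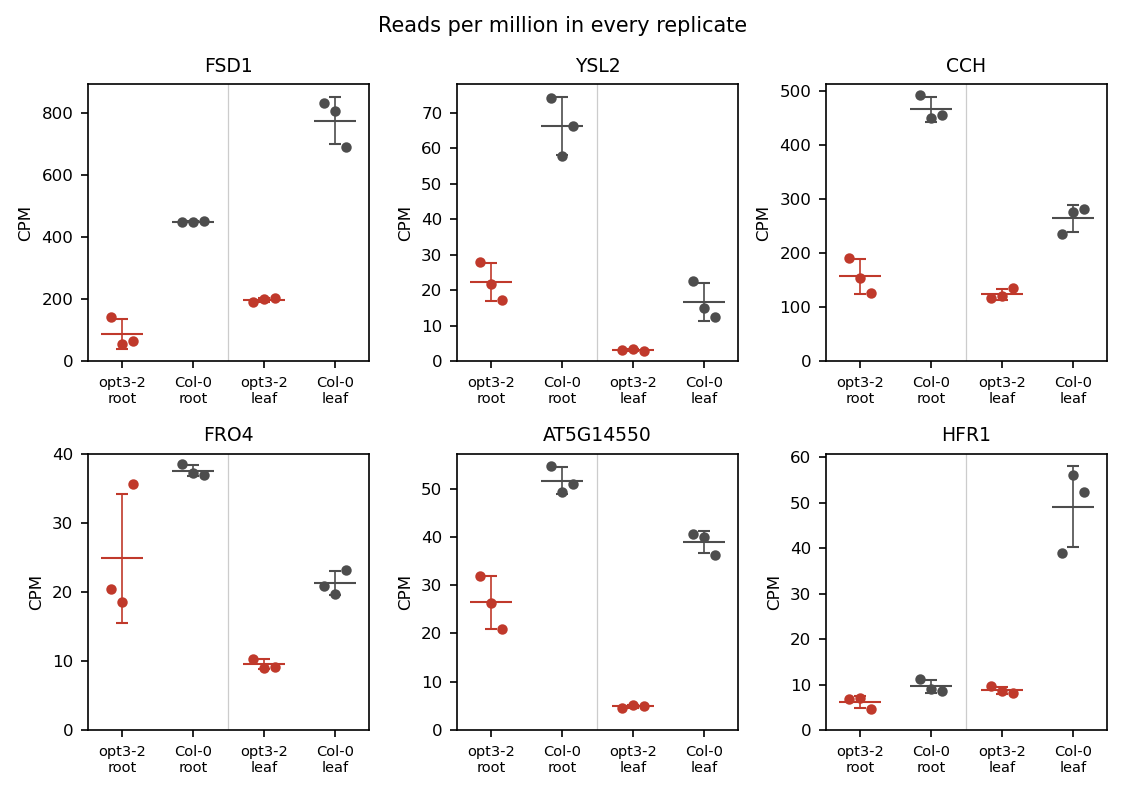
CPM in each replicate (points), with the mean (line) and SD (bar, n = 3), for the copper genes FSD1, YSL2, CCH and FRO4 and for AT5G14550 and HFR1; opt3-2 is red and Columbia-0 (Col-0) grey, roots on the left and leaves on the right of each panel, and each vertical axis starts at 0. FSD1 is at 144 CPM or below in opt3-2 roots and at 448 CPM or above in Columbia-0 roots.

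AT5G14550, annotated as a family member of Core-2/I-branching beta-1,6-N-acetylglucosaminyltransferases, had the lowest leaf ratio of the 68, 0.125. It had 4.46, 5.10 and 5.07 CPM in opt3-2 leaves, against 40.7, 39.9 and 36.3 CPM in Columbia-0 leaves. Root values were 31.8, 26.4 and 21.0 CPM in opt3-2, against 54.8, 49.3 and 51.0 CPM in Columbia-0 (ratio 0.511). The gene spans chr5:4691006-4694055 on the minus strand, and MIR398B (chr5:4691022-4691137, plus strand) lies inside this span on the other strand, within the last exon. MIR398C follows 638 bases beyond. Both loci give the same mature miR398 in RefSeq, shown here because miR398 acts on the copper/zinc dismutases. Capitals mark bases 2 to 8 of each strand for position only, and no match to a target was made.
miR398b-3p and miR398c-3p: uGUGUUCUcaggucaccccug
miR398b-5p and miR398c-5p: aGGGUUGAuaugagaacacac
The row of MIR398C held 6 reads over the 3 opt3-2 root replicates and 55 over the Columbia-0 ones, and 4 reads over opt3-2 leaves and 165 over Columbia-0 leaves. It passed in edgeR in both organs (log2 -3.08, adjusted p = 0.00573 in roots; -5.71, adjusted p = 3.68e-05 in leaves), in libraries that were not made for small RNAs. MIR398B had 0 reads in all 12 replicates. AT5G14550 had 542 reads over opt3-2 leaves and 3168 over Columbia-0 leaves. The neighbour on the other side, AT5G14540, was not lower in opt3-2 leaves: it had 5987 reads there and 3585 over Columbia-0 leaves. In roots it had 7139 reads over opt3-2 and 7032 over Columbia-0. These read totals are not scaled for depth, and the opt3-2 leaf replicates were the deepest, so the totals overstate the leaf excess of AT5G14540. AT5G14550 also overlaps AT5G14560 on the opposite strand over 92 bases. The use of strand in counting is not given, so reads of AT5G14550 and of opposite-strand transcripts at MIR398B or AT5G14560 cannot be told apart.

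Other genes with the lowest products of both ratios are on none of the copper lists. HFR1, a bHLH factor of light signalling that acts in shade responses, had 9.66, 8.54 and 8.20 CPM in opt3-2 leaves, against 39.0, 56.2 and 52.3 CPM in Columbia-0 leaves (ratio 0.179). In roots the difference was smaller, with 6.86, 7.07 and 4.57 CPM in opt3-2 and 11.3, 9.03 and 8.56 CPM in Columbia-0 (ratio 0.640), and HFR1 did not meet the rule with the Columbia-0 replicates of run numbers 2 to 4 alone, nor in 2 of the 12 cases with 1 replicate left out. AT5G14550, HFR1 and YSL2 were the 3 genes whose leaf and root log2 ratios differed most, at -2.03, -1.84 and -0.87. TRM14, AT5G45840 and AT3G25290 had nearly equal ratios in both organs; those of TRM14 were 0.687 and 0.687.

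AT1G49450, a WD40 repeat protein, had 31.3, 31.4 and 24.1 CPM in opt3-2 roots, against 60.2, 47.5 and 52.8 CPM in Columbia-0 roots (ratio 0.541). Its leaf values were 1.96, 2.41 and 2.40 CPM in opt3-2, against 8.84, 5.54 and 7.204 CPM in Columbia-0 (ratio 0.314). AT5G44680, of the DNA glycosylase superfamily, was mainly a leaf transcript. It had 39.6, 40.4 and 31.2 CPM in opt3-2 leaves, against 62.5, 94.8 and 87.2 CPM in Columbia-0 leaves (ratio 0.455), and root means of 2.63 CPM in opt3-2 and 5.61 CPM in Columbia-0. It did not meet the rule with TMM or upper-quartile factors.

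SWEET13, a sucrose exporter of the family that loads the phloem, had 6.501, 5.45 and 4.47 CPM in opt3-2 leaves, against 11.5, 14.3 and 9.09 CPM in Columbia-0 leaves (ratio 0.471). In roots it had 2.45, 4.48 and 4.40 CPM in opt3-2, against 6.999, 9.19 and 6.43 CPM in Columbia-0 (ratio 0.501). The annexin ANNAT3, a protein that binds membranes with calcium, had 14.7, 15.1 and 12.8 CPM in opt3-2 roots, against 27.8, 33.8 and 24.3 CPM in Columbia-0 roots (ratio 0.495). Both genes had ratios near 0.5 in both organs, and both met the rule under all 16 changes of scaling, run set or replicates described below. SUC2, which marks phloem companion cells, averaged 184 ± 11 CPM in opt3-2 leaves and 284 ± 21 CPM in Columbia-0 leaves (edgeR adjusted p = 0.000159). In roots it rose, with 71.4 ± 6.3 CPM in opt3-2 and 54.6 ± 5.3 CPM in Columbia-0 (edgeR adjusted p = 0.00252). All 4 phloem markers together summed to 234 to 271 CPM in opt3-2 leaves and 349 to 387 CPM in Columbia-0 leaves, and to 206 to 251 CPM in opt3-2 roots and 181 to 212 CPM in Columbia-0 roots. Their part in the values of SWEET13 was not tested.

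Another 6 genes are known from secondary walls, 3 of them on the list of xylem markers. IRX1 (CESA8), IRX3 (CESA7) and CESA4 are the 3 cellulose synthases of secondary walls and work in 1 complex. FLA11 and FLA12 are fasciclin-like arabinogalactan proteins of stems, and DIR6 is a dirigent protein that guides lignan formation. Ratios of the 6 were 0.630 to 0.697 in roots and 0.355 to 0.560 in leaves, so all 6 were lower by more in leaves. In the edgeR fit all 6 passed as lower in leaves. In roots DIR6 passed, while IRX1, IRX3, CESA4, FLA11 and FLA12 did not.

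CESA4 had 19.7, 25.2 and 17.4 CPM in opt3-2 leaves, against 39.7, 36.5 and 35.6 CPM in Columbia-0 leaves. IRX3 had 14.4, 17.1 and 9.84 CPM in opt3-2 leaves, against 30.1, 25.8 and 27.7 CPM in Columbia-0 leaves. For IRX1 the leaf values were 8.84, 12.8 and 7.74 CPM in opt3-2, against 20.5, 17.1 and 19.2 CPM in Columbia-0. All 3 synthases had their highest opt3-2 leaf value in replicate 2, as did 32 of the 68 genes. FLA12 had the lowest leaf ratio of the 6, with 5.25, 6.43 and 4.20 CPM in opt3-2 leaves, against 18.2, 10.3 and 16.2 CPM in Columbia-0 leaves.

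In roots the 3 synthases were nearer to the wild type. CESA4 had 74.8, 83.8 and 96.0 CPM in opt3-2 roots, against 133, 127 and 110 CPM in Columbia-0 roots. IRX3 had 51.3, 60.7 and 67.0 CPM in opt3-2 roots, against 93.6, 89.2 and 74.0 CPM in Columbia-0 roots, and IRX1 had 38.9, 41.4 and 58.9 CPM in opt3-2 roots, against 79.9, 75.0 and 61.8 CPM in Columbia-0 roots. The nearest replicates of the genotypes nearly touched: 67.0 and 74.0 CPM for IRX3, and 58.9 and 61.8 CPM for IRX1. Columbia-0 root replicate 3 was the lowest of its group for each of the 6 genes. It also carries other run numbers than root replicates 1 and 2, and with the Columbia-0 replicates of run numbers 2 to 4 alone none of the 6 met the rule, while all 6 did with those of run numbers 5 to 7. With TMM factors 1 of the 6, FLA12, still met it. Per kilobase of exon, IRX1, IRX3 and CESA4 had similar levels in Columbia-0 roots, at 21.6, 25.2 and 32.8 CPM per kb.

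The xylem marker list held these 3 synthases and 2 further genes, the cysteine peptidases XCP1 and XCP2, which act in dying xylem vessels. In leaves both peptidases fell: XCP2 averaged 22.2 ± 3.2 CPM in opt3-2 leaves and 30.8 ± 3.2 CPM in Columbia-0 leaves (log2 -0.51, edgeR adjusted p = 0.00656), and XCP1 averaged 11.2 ± 2.0 CPM in opt3-2 leaves and 14.2 ± 1.3 CPM in Columbia-0 leaves (log2 -0.38, edgeR adjusted p = 0.041). The XCP1 call was lost under several alternatives (edgeR adjusted p 0.01 to 0.105). In roots XCP2 fell, with 108 ± 1 CPM in opt3-2 and 152 ± 17 CPM in Columbia-0 (log2 -0.41, edgeR adjusted p = 0.0278), a call lost in 4 of the fits without 1 replicate (adjusted p up to 0.109). XCP1 did not pass in roots (edgeR adjusted p = 0.261). The 5 markers summed to 389 to 450 CPM in opt3-2 roots and 509 to 611 CPM in Columbia-0 roots, and to 69.6 to 92.9 CPM in opt3-2 leaves and 120 to 137 CPM in Columbia-0 leaves. The rule chose 3 of these 5 as lower in both organs, so a lower sum follows in part from that choice. No marker of the 5 was at 0. The part of xylem content in the values of the 6 genes was not tested.

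**Figure D3:**
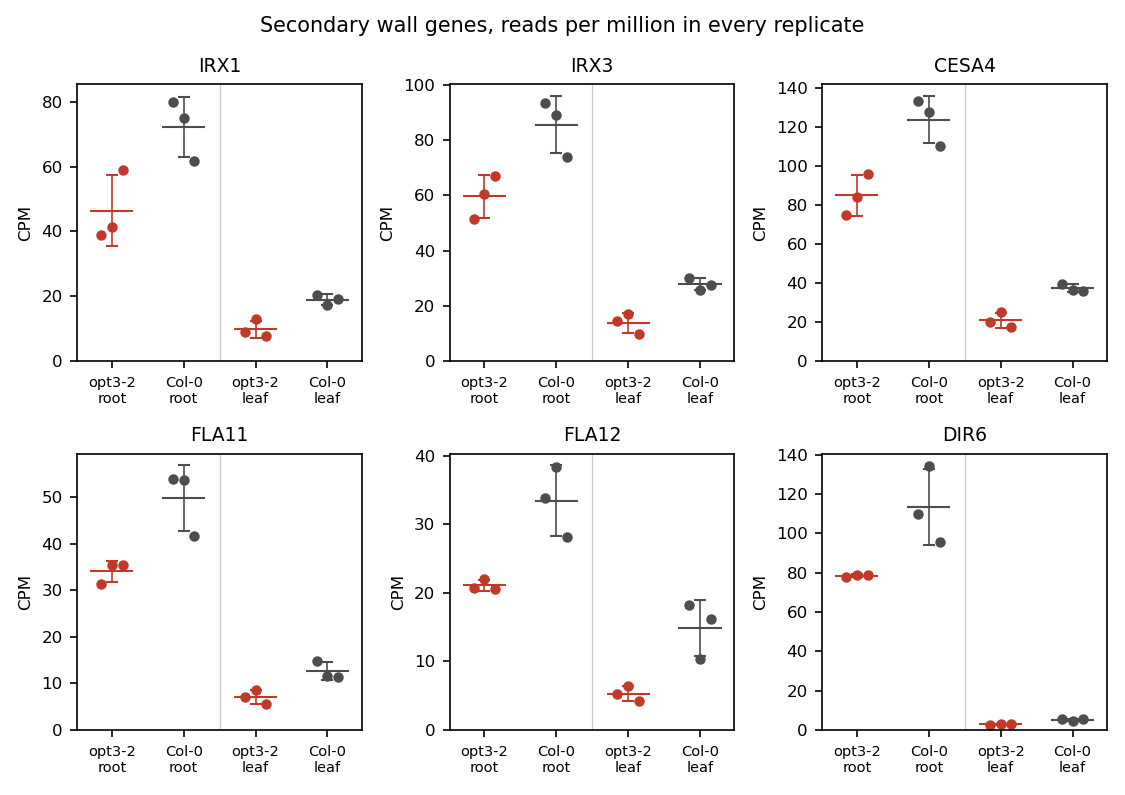
CPM in each replicate (points), with the mean (line) and SD (bar, n = 3), for the 6 secondary wall genes; opt3-2 is red and Columbia-0 (Col-0) grey, roots on the left and leaves on the right of each panel, and axes start at 0. In roots the highest opt3-2 point comes close to the lowest Columbia-0 point for IRX1 (58.9 and 61.8 CPM), while in leaves IRX1, IRX3 and CESA4 leave a wider gap.

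A further 7 genes act in growing walls and the cytoskeleton. CESA6, a cellulose synthase of growing walls, was the second most abundant of the 68 by the sum of its Columbia-0 root and leaf means (756 CPM, after FSD1 with 1227 CPM). It had 282, 325 and 347 CPM in opt3-2 roots, against 484, 495 and 469 CPM in Columbia-0 roots (ratio 0.659). Its leaf values were 170.3, 175 and 160 CPM in opt3-2, against 280.3, 277 and 262 CPM in Columbia-0 (ratio 0.616). Per kilobase it was at 116 CPM per kb in Columbia-0 roots, above the secondary wall synthases. ATCSLA09, a synthase of glucomannan chains, was at 52.9, 52.6 and 46.8 CPM in opt3-2 leaves, against 108, 84.4 and 87.1 CPM in Columbia-0 leaves. XTH8 is a xyloglucan-modifying enzyme, TUB8 a beta-tubulin, ACT11 an actin, KP1 a kinesin and TRM14 a protein of the TRM family. The 7 had ratios of 0.604 to 0.687 in roots and 0.546 to 0.687 in leaves, a narrow band compared with copper genes. It lay near the limit of 0.7 that the rule set. With TMM factors 2 of the 7, ATCSLA09 and TUB8, still met the rule, and CESA6 did not. Tubulins, actins and cellulose synthases have close relatives, and the sources used here do not say how reads shared by such copies were counted.

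Hormone genes made up 6 of the 68. CKX5 breaks down cytokinin, BR6OX2 makes the last step to brassinolide, LAX3 carries auxin into cells, TMK1 is a receptor-like kinase of auxin responses, and AMP1 and CYP78A6 affect organ growth. CYP78A6 had 18.4, 9.29 and 8.60 CPM in opt3-2 roots, against 30.2, 19.4 and 23.2 CPM in Columbia-0 roots (ratio 0.498), and 4.17, 4.34 and 4.33 CPM in opt3-2 leaves, against 7.71, 7.88 and 7.59 CPM in Columbia-0 leaves (ratio 0.553). LAX3 had 86.2, 106 and 109 CPM in opt3-2 roots, against 152, 170.0 and 144 CPM in Columbia-0 roots (ratio 0.645). CKX5, CYP78A6 and LAX3 met the rule under all 16 changes, whereas AMP1 and TMK1, with ratios of 0.688 and 0.693 in roots, lost it with TMM factors.

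NSH3 and ALN take part in the breakdown of purines, and UPM1 makes a precursor of sirohaem, the cofactor of nitrite and sulfite reductases. NSH3 is known as a secreted nucleosidase of Arabidopsis. It had 99.8, 106 and 100.4 CPM in opt3-2 roots, against 189, 173 and 165 CPM in Columbia-0 roots (ratio 0.580), and 15.1, 16.7 and 15.4 CPM in opt3-2 leaves, against 23.3, 22.2 and 28.1 CPM in Columbia-0 leaves (ratio 0.641). ALN, allantoinase, had 68.02, 72.02 and 68.7 CPM in opt3-2 roots, against 107, 108 and 100.5 CPM in Columbia-0 roots (ratio 0.662).

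UPM1 had 121, 128 and 122.9 CPM in opt3-2 roots, against 227, 205 and 194 CPM in Columbia-0 roots (ratio 0.595), and 56.9, 61.5 and 62.4 CPM in opt3-2 leaves, against 111, 81.0 and 85.4 CPM in Columbia-0 leaves (ratio 0.653). It belongs to a list of 10 nitrate response genes. Of the other 9, 4 fell and 0 rose in roots by edgeR (1 rose at an unadjusted p under 0.05 and 1 by DESeq2), and 2 rose and 0 fell in leaves (0 fell also at an unadjusted p under 0.05 and by DESeq2). Over all genes tested, 7.28% fell and 8.28% rose in roots, and 12.6% fell and 15.4% rose in leaves, by edgeR. The nitrate transporter NRT1.1 averaged 340 ± 33 CPM in opt3-2 roots and 875 ± 104 CPM in Columbia-0 roots (edgeR adjusted p = 4.77e-05). In leaves NRT1.1 rose (89.8 ± 4.5 CPM in opt3-2 and 65.7 ± 8.6 CPM in Columbia-0, edgeR adjusted p = 0.0318), but this call was lost with DESeq2 size factors (0.059), without any 1 of the opt3-2 leaf replicates and without Columbia-0 leaf replicate 2 or 3 (adjusted p 0.0118 to 0.161 over 13 alternatives). NIR1, the nitrite reductase, whose cofactor is sirohaem, averaged 257 ± 15 CPM in opt3-2 roots and 464 ± 37 CPM in Columbia-0 roots (edgeR adjusted p = 0.00051), and in leaves it did not pass (adjusted p = 0.207).

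Phosphate and lipid genes numbered 4. AT4 is a transcript induced by phosphate starvation, whose family sequesters miR399. It had 14.5, 19.3 and 15.3 CPM in opt3-2 roots, against 36.8, 30.2 and 33.6 CPM in Columbia-0 roots (ratio 0.489), and 1.57, 2.41 and 3.00 CPM in opt3-2 leaves, against 7.76, 4.16 and 5.71 CPM in Columbia-0 leaves (ratio 0.396). GPAT3, an acyltransferase, had 17.1, 19.1 and 16.2 CPM in opt3-2 leaves, against 55.0, 39.2 and 30.3 CPM in Columbia-0 leaves (ratio 0.421). MGD2, a galactolipid synthase of phosphate-starved plants, and PIP5K1, a phosphoinositide kinase, sat near the limit, with ratios of 0.694 in roots for MGD2 and 0.695 in leaves for PIP5K1.

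Transport proteins other than those above were UMAMIT17, of a family of amino acid carriers, the proton pump subunit VHA-E3, AT1G08890 of the major facilitator superfamily and AT4G38380 of the MATE efflux family. UMAMIT17 was abundant in roots, with 288, 249 and 262 CPM in opt3-2, against 425, 417 and 429 CPM in Columbia-0 (ratio 0.628), and it had 9.05, 10.01 and 12.4 CPM in opt3-2 leaves, against 18.5, 20.0 and 19.0 CPM in Columbia-0 leaves (ratio 0.547). VHA-E3 had 83.6, 87.0 and 85.2 CPM in opt3-2 roots, against 153, 154 and 142 CPM in Columbia-0 roots (ratio 0.568). Replicates of these 2 genes were close to each other, and 4 of the 5 transport genes, SWEET13 included, met the rule under all 16 changes. AT1G08890 was the exception.

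Receptor kinases were LYK4, which takes part in chitin perception, AT5G56040 and AT5G45840. AT5G56040 had 61.9, 67.1 and 69.6 CPM in opt3-2 roots, against 110, 125 and 103 CPM in Columbia-0 roots (ratio 0.589). In the same organ LYK4 had 24.1, 27.2 and 29.5 CPM in opt3-2, against 46.6, 45.4 and 41.4 CPM in Columbia-0 (ratio 0.606). AT5G45840 touched the limit of overlap, since its opt3-2 root replicate 3 had 30.62 CPM and the lowest Columbia-0 root replicate 30.63 CPM.

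HSP70, a chaperone, was the sole member from the list of 4 heat shock genes. It had 113, 79.9 and 64.3 CPM in opt3-2 roots, against 193, 148 and 143 CPM in Columbia-0 roots (ratio 0.531), and 10.3, 8.14 and 9.15 CPM in opt3-2 leaves, against 17.6, 18.7 and 17.2 CPM in Columbia-0 leaves (ratio 0.515). Of the other 3, HSP101, HSP90-1 and HSFA2, 0 passed in roots by edgeR (adjusted p 0.199 to 0.877; 0 also at an unadjusted p under 0.05 and by DESeq2), and HSP90-1 rose in leaves (log2 0.72, edgeR adjusted p = 0.00184). HSP101 and HSFA2 did not pass in leaves (log2 -0.10 and -0.63, edgeR adjusted p = 0.525 and 0.189). SOT17 is a sulfotransferase of glucosinolate synthesis, which makes sulfur-rich defence compounds. SOT17 had 38.0, 41.0 and 40.8 CPM in opt3-2 leaves, against 80.8, 67.2 and 72.3 CPM in Columbia-0 leaves (ratio 0.544), and 45.9, 39.6 and 42.7 CPM in opt3-2 roots, against 59.6, 67.3 and 61.5 CPM in Columbia-0 roots (ratio 0.680). Of 7 other genes of aliphatic glucosinolate synthesis, 6 fell in leaves and 1, MYB28, fell in roots by edgeR (7 and 2 by DESeq2). Over all genes tested, 12.6% fell in leaves and 7.28% in roots by edgeR. The remaining 12 fixed lists, marker lists included, held no member.

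Of the 68 genes, 30 were in none of these role groups, with ratios of 0.469 to 0.6995 in roots and 0.125 to 0.697 in leaves. Besides those named above they were the lectin JAL22, the MLP-like protein MLP43, the heptahelical protein HHP1, the subtilase AT4G21650, the alpha/beta-hydrolases AT1G52750 and AT3G24420, the homeodomain-like protein AT2G38090, the U3 ribonucleoprotein AT5G08600, the elongation factor 1-beta AT5G12110, the methyltransferase AT5G40830 and the F-box protein AT3G23880. Also among them were the mitochondrial termination factor AT1G78930, the WEB family protein AT1G65010, the AMP-dependent ligase AT2G17650, the DUF828 protein AT4G14740, the DUF581 protein AT1G78020, the Sec14-like protein AT1G30690, the auxin-responsive family protein AT3G25290, the plastid protein AT2G27402, the uncharacterised AT2G17300 and AT1G77885, and the noncoding RNAs AT2G15292 and AT2G14878. JAL22 differed from most in being lower mainly in roots: it had 130, 65.8 and 46.4 CPM in opt3-2 roots, against 187, 133 and 178 CPM in Columbia-0 roots (ratio 0.486), and a leaf ratio of 0.678. Its first opt3-2 root replicate nearly reached the lowest Columbia-0 one. AT5G12110 overlaps a gene on the opposite strand over 50.3% of its span, so its counts are uncertain.

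The level of the 68 genes in leaves relative to roots of Columbia-0 was compared with edgeR's fit over all genes. The rule did not compare organs, but it used the same Columbia-0 values, for the floor of 5 CPM, for the ratios and for the limit of overlap in each organ. The test is therefore not independent of how the genes were chosen, and counts over the 68 are given as a description. In edgeR's quasi-likelihood test, 59 of the 68 differed between the organs, where 77.4% of all genes tested and 74.1% of the 12942 genes did: 19 were higher in leaf and 40 lower in leaf. Among all genes tested 36.2% were higher and 41.2% lower in leaf. Among the 12942 genes with 5 CPM in both organs 37.4% were higher and 36.7% lower. Of the 68, 58.8% were lower in leaf and 27.9% were higher; these shares were not tested against the background. The median log2 fold change, leaf minus root, was -0.61 over the 68, -0.06 over all genes tested and 0.00 over the 12942 genes. With total counts as the scaling all genes shifted by -0.52 in this contrast, and 15 of the 68 were then higher and 48 lower in leaf, while over all called genes the share higher in leaf was 28.2%, against 46.8% with TMM factors.

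The largest root excess was that of UMAMIT17, which averaged 19.1 CPM in Columbia-0 leaves and 424 CPM in Columbia-0 roots (log2 -3.95 ± 0.11 SE, edgeR adjusted p = 8.97e-12). DIR6 averaged 5.15 CPM in Columbia-0 leaves and 113 CPM in Columbia-0 roots (-3.94 ± 0.13, edgeR adjusted p = 4.73e-11). JAL22 averaged 8.42 CPM in leaves and 166 CPM in roots of Columbia-0 (-3.78 ± 0.30, edgeR adjusted p = 1.93e-07). For the uncharacterised AT1G77885 the means were 10.6 CPM in leaves and 165 CPM in roots of Columbia-0 (-3.44 ± 0.17, edgeR adjusted p = 1.46e-09).

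At the other end, the subtilase AT4G21650 averaged 143 CPM in Columbia-0 leaves and 9.18 CPM in Columbia-0 roots (4.48 ± 0.18, edgeR adjusted p = 2.38e-10). AT5G44680 had 81.5 CPM in leaves and 5.61 CPM in roots of Columbia-0 (4.37 ± 0.21, edgeR adjusted p = 1.16e-09). MLP43 had 85.4 CPM in leaves and 11.9 CPM in roots of Columbia-0 (3.37 ± 0.12, edgeR adjusted p = 1.3e-10), and HFR1 had 49.2 CPM in leaves and 9.63 CPM in roots of Columbia-0 (2.87 ± 0.17, edgeR adjusted p = 1.12e-08). In these 8 genes no leaf replicate of Columbia-0 overlapped a root replicate. By role, all 6 secondary wall genes, all 3 purine and nitrogen genes and all 3 receptor kinases were lower in leaf, as were 6 of 7 growing wall and cytoskeleton genes. ATCSLA09 was the exception among those 7 (1.25 ± 0.10, edgeR adjusted p = 2.65e-07). Over all 68 genes 58.8% were lower in leaf, and over the 12942 genes 36.7%. The role groups were formed after the values were seen, so nothing is read from their counts. The counts rest in part on single replicates: FLA12 lost its call without Columbia-0 leaf replicate 2 (adjusted p = 0.0683 by edgeR), and CESA6 lost it without any 1 of the Columbia-0 leaf replicates (up to 0.174). Of the hormone genes 4 were called higher in leaf and 2 lower. Among the 4, AMP1 turned its sign under other scalings, and replicates of CKX5 overlapped between the organs in CPM.

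The copper genes did not share an organ. FSD1 was higher in Columbia-0 leaves (1.31 ± 0.26, edgeR adjusted p = 0.000559) and YSL2 higher in Columbia-0 roots (-1.47 ± 0.21, edgeR adjusted p = 4.22e-05). CCH was slightly lower in leaf (-0.30 ± 0.11, edgeR adjusted p = 0.0257), a call lost under 6 of 14 alternatives (adjusted p up to 0.221), and FRO4 did not pass (-0.31 ± 0.21, edgeR adjusted p = 0.198). Of the other members, AT5G14550 did not differ by the test (0.11 ± 0.11, edgeR adjusted p = 0.354), although with total counts its value was -0.41. AMP1 passed as higher in leaf (0.17 ± 0.07, edgeR adjusted p = 0.0383), and its sign turned with upper-quartile factors and with total counts.

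**Figure D4:**
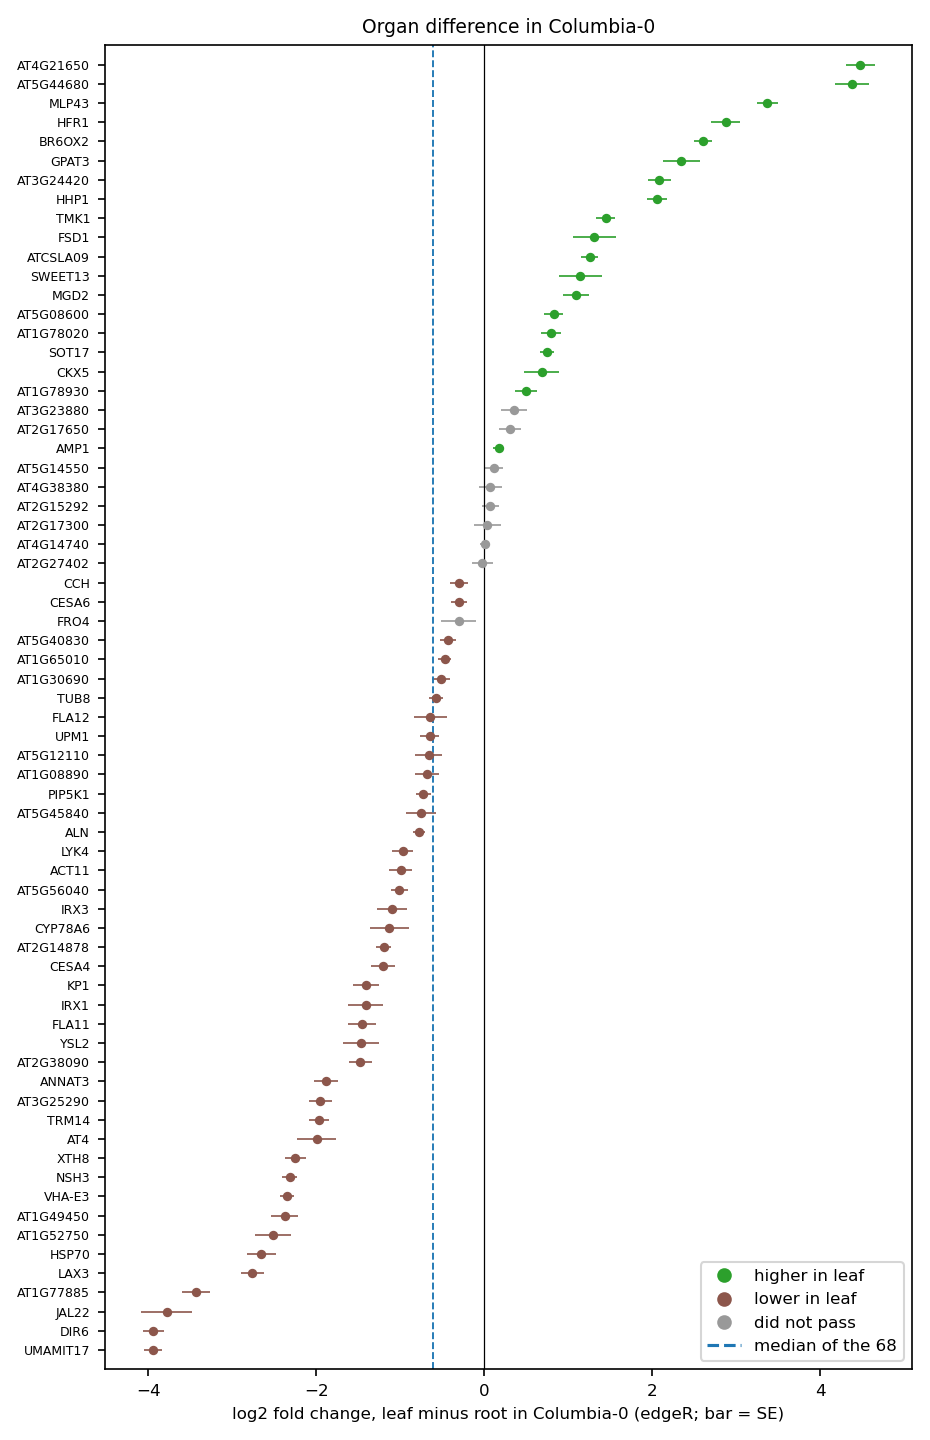
Log2 fold change, leaf minus root in Columbia-0 (horizontal axis, edgeR fit, bars are SE), for each of the 68 genes, sorted; green points passed as higher in leaf, brown ones as lower in leaf and grey ones did not pass. The dashed line is the median of the 68, -0.61, and brown points (40) outnumber green ones (19).

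The count of 68 depended on the choices in the rule. A ratio limit of 0.6 left 14 genes and one of 0.8 gave 316. With TMM factors 40 genes met the rule, 32 of them among the 68, and with upper-quartile factors 49 did, 38 of them among the 68. Leaving out 1 replicate gave 62 to 90 genes, with 52 to 67 of the 68 among them. Columbia-0 replicates with run numbers 2 to 4 alone gave 90 genes with 38 of the 68, while 59 of the 68 met it with those of run numbers 5 to 7. Because all opt3-2 replicates carry run numbers 1 to 3, an effect of runs and the genotype cannot be fully told apart. In Columbia-0 roots, replicate 3 held the lowest value of its group for 44 of the 68 genes. Across 2 sets of factors, 2 run sets and 12 left-out replicates, 16 changes in all, 22 of the 68 met the rule every time: FSD1, YSL2, CCH, AT5G14550, AT1G49450, SWEET13, ANNAT3, GPAT3, HSP70, CYP78A6, AT2G17300, AT5G08600, ATCSLA09, CKX5, VHA-E3, UMAMIT17, LAX3, AT5G56040, NSH3, AT4G38380, TUB8 and AT3G25290.

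Of the genes nearest to the ratio limit in roots, AT4G14740, IRX3 and MGD2 were just inside, at 0.6995, 0.697 and 0.694. The cellulase GH9C2, AT2G47500 and CIP7 were just outside, at 0.702, 0.703 and 0.705. In leaves, AT2G14878, PIP5K1 and AMP1 were just inside, at 0.697, 0.695 and 0.693. CVP2, the potassium channel GORK and the DNA methyltransferase CMT2 were just outside, at 0.702, 0.704 and 0.714. With overlap of replicates allowed, 82 genes met the rule, against 68 with the rule as given. Among the 12942 genes, all opt3-2 replicates lay below all Columbia-0 replicates for 29.1% in roots and 21.6% in leaves.

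**Figure D5:**
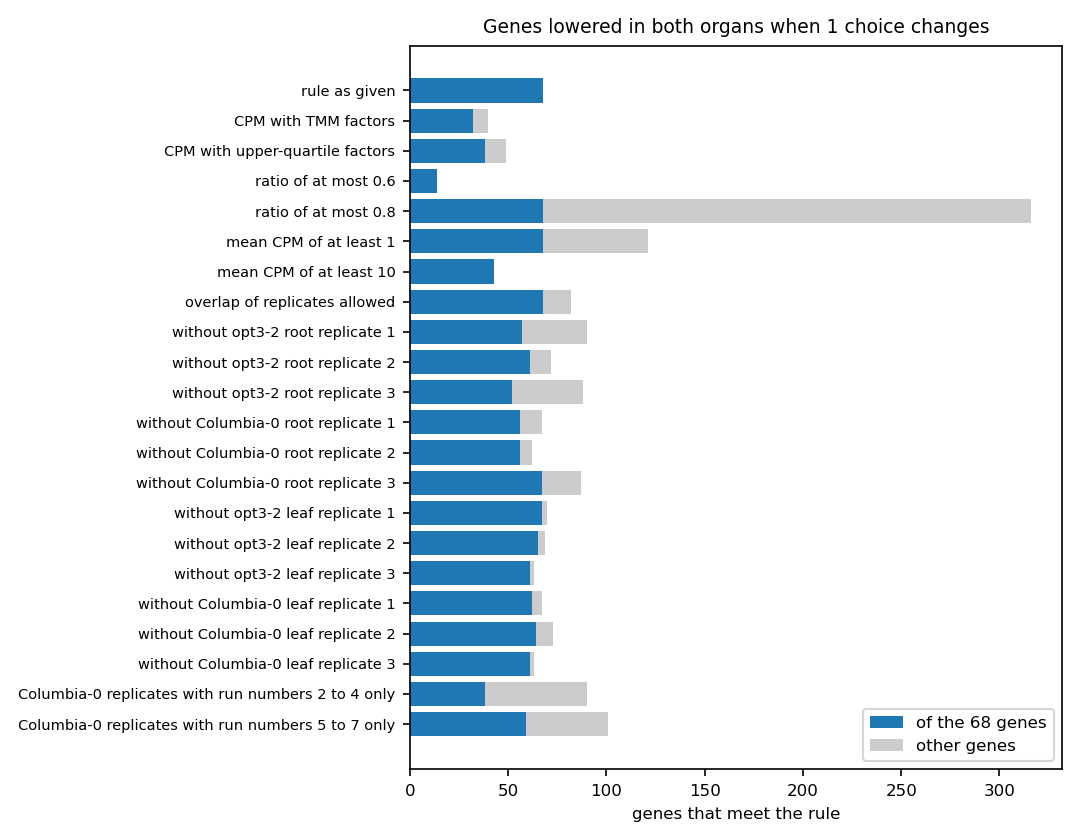
Number of genes that met the rule (horizontal axis) as given and with 1 choice changed at a time (rows); blue is the part that belongs to the 68 genes and grey the other genes. A ratio limit of 0.8 gives 316 genes, TMM factors give 40 with 32 of the 68, and no left-out replicate takes the count under 62.

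Of genes in the other directions, 88 met the rule turned round, being raised in both organs, 25 were raised in roots and lowered in leaves, and 30 were lowered in roots and raised in leaves. In roots 368 genes met the part of the rule for that organ and in leaves 749, so the 68 were 18.5% of the first set and 9.08% of the second.

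The 68 genes lay on all 5 chromosomes, with 22 (32.4%) on chromosome 5, which holds 23.4% of the 12942 genes, and 17 (25%) on chromosome 1, which holds 26.2%. A single pair, AT5G40830 and UPM1, lay within 9558 bases of each other, and they are on opposite strands. The median exon length was 1918 bases over the 68 and 1908 over the 12942 genes. In RefSeq's annotation 14 of the 68 overlap another gene, 13 of them on the opposite strand and 4 over more than 10% of their span: IRX1, CKX5, AT5G12110 and TRM14. Counts of these 4 may hold reads of the other gene.

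In the promoter windows, GTAC occurred in 31 of the 68 (45.6%), against 39.1% of the 28009 promoters of the same length, a share near the background. It occurred at least 2 times in 12 of the 68 (17.6%), against 9.89%, and at least 3 times in 3 (4.41%), against 2.03%. YSL2 and CCH were among those 3. The shares of other motifs, searched on both strands, were near or below the background: the G-box CACGTG was in 5 of the 68 (7.35%, against 7.66%), the evening element AAATATCT in 5 (7.35%, against 5.64%), the heat shock element core GAANNTTC in 5 (7.35%, against 11.5%) and the W-box core TTGAC in 30 (44.1%, against 50.5%). A match is a string of letters and no measured site of binding.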

How the data were processed

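Counts of reads per gene, as the authors deposited them, are whole numbers that were not normalized, per the file headers and values. Per the submitters' processing notes, which name no versions, TopHat2, edgeR and the build TAIR10 were used. The sources used here do not give the counter, annotation release or use of strand. The table has 72 columns, of which 36 matched samples of this study by name and 36 were not used. The 3 runs of a replicate differed by little more than sampling noise (chi-square per degree of freedom 1.02 to 1.07, against 3.26 to 77.8 between biological replicates) and were summed, giving 12 replicates. All opt3-2 replicates have run numbers 1 to 3, Columbia-0 root 1, root 2 and leaf 3 have 5 to 7, and the other Columbia-0 replicates have 2 to 4.

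The rule used CPM by total counts. Tests used edgeR 4.0.16 in R 4.3.3, quasi-likelihood F test with TMM factors and filterByExpr, 1 mean per group over 12 replicates (8 residual degrees of freedom), Benjamini-Hochberg over 21692 genes at a threshold of 0.05. On simulated counts for opt3-2 against Columbia-0 in roots the step recovered 188 of 200 changed genes. Those genes were well read and changed 2-fold, up or down. The median log2 fold change of the 68 in roots was smaller, at -0.53, and changes of that size were not simulated. Leaf against root was not simulated. DESeq2 1.42.0, other factors, no filter, a replicate block, fits of only the 2 groups and left-out replicates were alternatives. Replicate numbers of opt3-2 and Columbia-0 roots deviated together (r = 0.466, 0.157 and 0.46 across genes), so they were taken to pair roots. Those of leaves did not, nor did those of the Columbia-0 organs. Of the gene identifiers 28009 matched RefSeq of TAIR10.1, which gave names, coordinates and promoters, and 766 did not.

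Genes named in full were OPT3, the 12 lowest products of ratios, the 6 most abundant, list members, the 4 highest and 4 lowest organ differences, the 3 nearest each limit, and the 3 most and 3 least different between organs. Other members were described by role after their values were seen. The 68 genes, the 16 lists and the role groups were chosen with earlier results of these data known, so a pattern in them is no independent support. List counts have no set test.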

Additional observations from a re-analysis of the deposited data

How the results depend on the processing

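Counts of genes that met the rule moved by over 1.5 times with TMM factors (40), a ratio limit of 0.6 (14) or 0.8 (316), and a floor of 1 CPM (121) or 10 CPM (43); leaving out 1 replicate gave 62 to 90. For leaf against root in Columbia-0, members called were 57 to 58 with 1 replicate left out, 18 to 20 higher and 37 to 40 lower, and 58 to 63 under the other alternatives. Genes called in roots numbered 3377, 1973 when only the root groups were fitted, and 2074 to 4231 with 1 replicate left out (2237 without Columbia-0 root replicate 1 and 2074 without replicate 2). Those called in leaves numbered 6090, and 4138 to 5342 with 1 replicate left out. Other list genes called were 25 to 34 in roots (33 with all replicates) and 43 to 49 in leaves (56). With the replicate block, which pairs the roots, 3225 genes were called in roots and 59 members between organs, and no count moved by over 1.5 times; the AMP1 call was lost (adjusted p = 0.0587), as was that of XCP1 in leaves (0.0554).

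Reversed signs between organs were those of AT5G14550 with total counts (-0.41), AT4G14740 with upper-quartile factors (-0.18) and total counts (-0.52), and AMP1 with upper-quartile factors (-0.016) and total counts (-0.35); all genes shift by -0.52 with total counts and by -0.19 with upper-quartile factors. CESA6 lost its organ call without any 1 of the Columbia-0 leaf replicates (adjusted p up to 0.174), FLA12 without leaf replicate 2 (0.0683), and FRO4 gained one under 3 alternatives (as low as 0.00153). CITF1 lost its leaf call without opt3-2 leaf replicate 2 or 3 or Columbia-0 leaf replicate 2 (up to 0.082). Of the ratios of named members under other scalings or replicates, 49 of 544 moved by more than 1 SD. The causes were not tested.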

Other observations

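Further gene groups, 3 in all, were listed after the 68 genes were known, to see what surrounds them, so they are described without a test. Of 18 secondary wall and lignin genes outside the 68, 17 had log2 fold changes below 0 in roots and 17 in leaves, with medians of -0.23 in roots and -0.71 in leaves, beside 0.00 over all genes tested in each. IRX15L, which acts in xylan formation, averaged 2.82 CPM in opt3-2 leaves and 6.18 CPM in Columbia-0 leaves, and 17.2 CPM in opt3-2 roots and 23.1 CPM in Columbia-0 roots. The chitinase-like CTL2 averaged 9.27 CPM in opt3-2 leaves and 21.4 CPM in Columbia-0 leaves. FRA8 was the exception in leaves, with 12.8 CPM in opt3-2 and 8.09 CPM in Columbia-0.

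Of 5 purine catabolism genes outside the 68, none was below 0 in either organ, unlike NSH3 and ALN; TTL had log2 values of 0.37 in roots and 0.44 in leaves. Among 6 phosphate starvation genes with enough reads, 5 were below 0 in roots and 2 in leaves. PHT1;4, a phosphate carrier, averaged 3.06 CPM in opt3-2 leaves and 0.907 CPM in Columbia-0 leaves, opposite in direction to AT4.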
